A study of Mus musculus with 14 samples.

Results

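The genes of ribosome synthesis examined here are a list of 44 mouse genes, which code for proteins of small nucleolar RNA-protein particles (snoRNPs), nucleolar chaperones, RNA polymerase I and the factors that process and assemble the small and large ribosomal subunits. They were matched by gene identifier among the 40853 identifiers of the expression tables. All 44 averaged at least 1 TPM (transcripts per 1e6, a level corrected for gene length) over the 14 libraries and were tested, among 12927 genes that met this minimum. In 4 of them, Rrp9, Rrp12, Rrp15 and Pes1, the mean was under 5 TPM, and these are described apart.

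Ribosome synthesis starts in the nucleolus, where RNA polymerase I transcribes the precursor of most ribosomal RNAs. Box C/D snoRNPs guide methylation of that RNA and box H/ACA snoRNPs guide its conversion of uridine to pseudouridine, while large sets of assembly factors fold and cut it and load ribosomal proteins. Many of the genes are known targets of the transcription factor MYC, and the pathway is known for following cell growth.

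The libraries came from αTN4-1, an established mouse lens epithelial cell line, labelled alpha-TN4. Stable lines were kept in medium with 10% fetal bovine serum and 600 ug/ml of neomycin, and carried an empty construct (Vector, genotype label WT) or a form of the transcription factor CREB. Per the labels these are WT-CREB, KCREB, R314A-CREB and S133A-CREB, along with the combined forms S133A-KCREB and S133A/R314A-CREB. S133A replaces the serine that protein kinase A phosphorylates. The labels do not describe K or say what R314A does, and the growth protocol names neither K line. Each of the 7 lines has 1 control library and 1 library of cells given TGFβ at 20 ng/mL for 24 h. TGFβ was given in medium free of serum and the labels do not say whether controls were also without serum, so TGFβ and the loss of serum cannot be told apart. The labels do not say whether a line is 1 clone or which promoter drives its construct. Lines serve as the replicates for TGFβ. Its p-values measure how the TGFβ minus control difference varies between lines, and not the spread between repeat cultures.

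Creb1 checks the labels. In the order Vector, WT-CREB, KCREB and R314A-CREB, then S133A-CREB, S133A-KCREB and, last, S133A/R314A-CREB, which holds for all lists of 7 values below, Creb1 was at 20.8, 11.6, 25.8, 9.04, 6.59, 34 and 7.92 TPM in controls and at 23.1, 9.68, 30.1, 5.89, 4.43, 38.3 and 6.01 TPM with TGFβ. The lines labelled KCREB and S133A-KCREB were above Vector, and the other 4 CREB lines were below it, against their label of overexpression. The labels do not name the species of the constructs, and a CREB line is named below only as its label has it. Lens epithelium markers were present in every library for Pax6 (54.4 to 328 TPM), Six3 (43.4 to 87 TPM) and Cryab (244 to 1674 TPM), while Foxe3 (0 to 0.00455 TPM) and Cdh1 (0 to 0.249 TPM) were at or near 0. Adgre1 of macrophages and Myod1 and Myog of muscle were listed at 0 throughout, and Pecam1 of endothelium reached 0.298 TPM. Other genes of those lists were present. Of the macrophage genes, Lyz2 was at 8.38 to 86.8 TPM, Cd68 at 1.42 to 10.1 TPM and Csf1r at 0.789 to 3.92 TPM. Des of muscle was at 4.06 to 28.4 TPM, and Cdh5 and Esam of endothelium reached 3.12 and 3.27 TPM. Coverage per unit of FPKM, a relative measure of depth, ran from 5.05 to 10.1 across libraries.

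Promoter windows are shown first because MYC binds E-boxes (CACGTG) and CREB binds the cAMP response element (CRE, TGACGTCA). RefSeq windows of 250 bases before to 50 bases after a gene's start (build GRCm38.p6, which differs from the GRCm39 of the expression tables) were found for 38 of the 44 genes, in 40 windows. Those of Gnl2, Bop1, Npm1, Rrp12, Fbl and Gnl3l were missing. An E-box lay in 7 of the 38 (18.4%), against 11.7% of the 9918 tested genes with a window and 8.09% of all 27025 genes in the set. The 7 are given below 5′ to 3′ on the strand of the gene, with the E-box in capitals. They lie at chr6:125131813-125131838 (Nop2, plus strand), chr11:74898094-74898119 (Tsr1, plus strand), chr11:72441357-72441376 (Mybbp1a, plus strand), chr11:3963967-3963992 (Pes1, plus strand), chr17:71616222-71616247 (Wdr43, plus strand), chr10:13193094-13193119 (Ltv1, minus strand) and chr10:88826765-88826787 (Utp20, minus strand).
Nop2: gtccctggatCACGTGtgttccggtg
Tsr1: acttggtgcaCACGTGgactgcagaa
Mybbp1a: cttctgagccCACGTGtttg
Pes1: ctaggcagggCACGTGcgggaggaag
Wdr43: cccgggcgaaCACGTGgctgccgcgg
Ltv1: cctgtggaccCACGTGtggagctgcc
Utp20: gcactaactaCACGTGaggaaaa
The E-box of Nop2 begins 60 bases before the start, and the others begin 3 to 41 bases into the transcript. On both strands, the full CRE was found in 0 of the 38 genes, against 3.6% of tested genes. The shorter CRE letters TGACG, which the full CRE contains, were found in 19 of 38 (50%) against 35.6%, and the median number of CpG in a window was 20.5 against 20. These are matches of letters and not sites of binding. With TGFβ the 7 genes with an E-box changed by 0.35 to 0.57 (median 0.49), and the 31 without one by 0.050 to 0.80 (median 0.40), all on the log2(TPM + 1) scale used for every change below.

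Most genes of the list were higher with TGFβ. In limma's fit over all 12927 genes with the line as a block, 35 of the 44 were higher with TGFβ at an adjusted p under 0.05, where 24.1% of all tested genes were, and 0 were lower, where 21.4% of all were. The median change of the 44 was 0.39, against 0.02 for all genes tested, and the changes ran from 0.0080 for Gnl3l to 0.80 for Nop56. In 32 of the 44 the TGFβ library was above the control in all 7 lines, against 18.5% of all genes. In 6 of them, Nhp2, Nolc1, Mybbp1a, Bysl, Tsr1 and Wdr74, the lowest TGFβ library lay above the highest control, against 1.45% of all genes. Without the line as a block 21 were higher and 0 lower, where 4.99% of all genes were higher. Without the 4 lines whose Creb1 was below Vector, 31 were higher and 0 lower, with a median of 0.48, where 17.2% of all genes were higher and 14% lower. Cell type markers moved with the treatment too: 5 of 6 tested lens epithelium markers fell. The sum over all 8 listed epithelium markers was 546 to 2354 TPM in controls and 425 to 858 TPM with TGFβ. All 5 tested lens fiber markers fell (median -0.73). The sum over all 9 listed fiber markers was 20.3 to 124 TPM in controls and 15.2 to 43.3 TPM with TGFβ. Bfsp2 (mean 1.19 TPM) and Crygs (mean 1.055 TPM) were near the minimum of 1 TPM, and Crygs was at 0 in every TGFβ library. Of 3 tested macrophage markers 2 rose and 1 fell, and of the single tested genes of other lists Tubb3 (neurons, 1.67) and Esam (endothelium, 0.33) rose and Des (muscle, -0.44) fell. The part of these genes in the result was not tested. TPM is a share of each library, so a rise here is a rise relative to other transcripts. In bulk libraries like these, fewer cells of a type and less RNA per cell cannot be told apart.

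**Figure D1:**
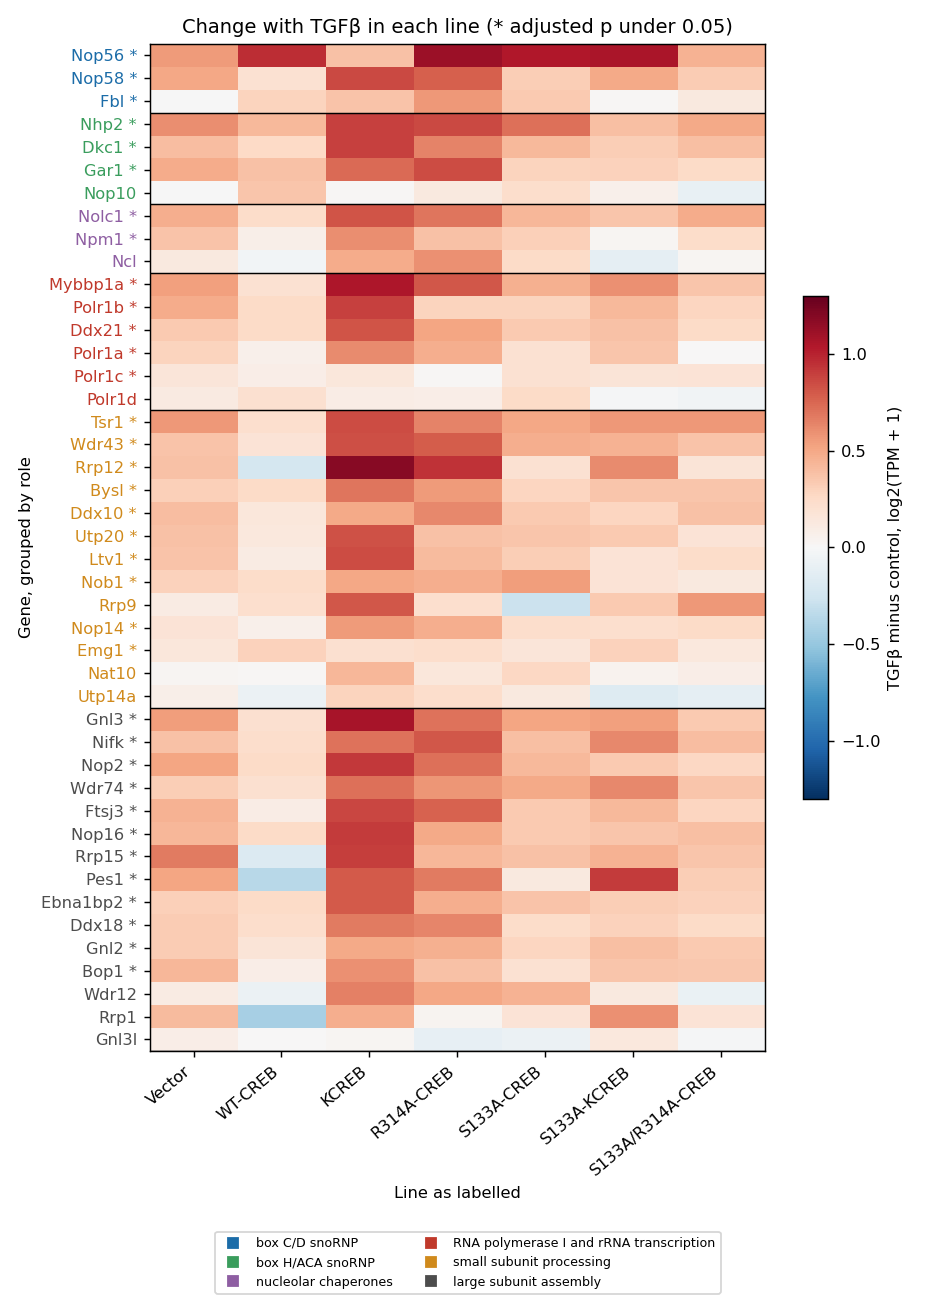
Heat map of the TGFβ minus control difference on the log2(TPM + 1) scale, with the 44 genes as rows grouped by role and the 7 lines as columns. An asterisk marks the 35 genes with an adjusted p under 0.05; most cells are red (higher with TGFβ), and the KCREB column holds the largest difference for 30 of the 44 genes.

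All 3 box C/D snoRNP genes rose, with a median of 0.50. Nop56 (chr2:130112904-130121233 on GRCm39), a core scaffold protein of these particles, was at 190.1, 159.8, 178, 133.2, 148, 107 and 93.8 TPM in controls and at 280.4, 312, 232, 289, 305, 224 and 129 TPM with TGFβ. The TGFβ library of S133A/R314A-CREB was within the range of the controls, and the other TGFβ libraries were above every control. Nop56 went from 144 ± 35.5 to 253 ± 64.5 TPM (mean ± SD, n = 7 lines), a change of 0.80 ± 0.10 (SE), adjusted p = 4.65e-04 in limma. Nop58, its partner scaffold, went from 113 ± 12.4 to 161 ± 20.4 TPM, a change of 0.50 ± 0.08 (SE), adjusted p = 0.00128. Fbl, the methyltransferase fibrillarin, was at 147, 134, 131, 104, 123, 232 and 127 TPM in controls and at 147, 165, 169, 155, 156, 234 and 138 TPM with TGFβ. The S133A-KCREB line was highest for Fbl in both treatments and hardly differed between them, and the groups overlapped. The change of Fbl was 0.24 ± 0.07 (SE), adjusted p = 0.0185, and 0.13 with an adjusted p of 0.335 in limma without the 4 lines of low Creb1.

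Of the 4 box H/ACA genes 3 rose, with a median of 0.47 for the group. Nhp2 (chr11:51510600-51514545), an RNA-binding core protein, was at 141, 155, 88.6, 132, 114, 139 and 160.1 TPM in controls and at 215, 208, 165, 240.1, 189, 182 and 226 TPM with TGFβ. The groups did not overlap, and KCREB was lowest in each. Nhp2 had the smallest p of the 44 in limma (0.63 ± 0.07 (SE), adjusted p = 2.76e-04). Dkc1, the pseudouridine synthase dyskerin, changed by 0.48 ± 0.07 (SE), adjusted p = 0.00112, and Gar1 by 0.47 ± 0.08 (SE), adjusted p = 0.00152. Nop10, the smallest core protein, was at 116, 132.8, 113, 102, 100.5, 129 and 102 TPM in controls and at 116, 171, 114, 112, 118, 135 and 95.4 TPM with TGFβ. Its highest value was that of WT-CREB with TGFβ, its groups overlapped widely, and its change of 0.1 did not pass the test (adjusted p = 0.173 in limma).

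Among the nucleolar chaperones, Nolc1 and Npm1 rose. Nolc1, which binds snoRNPs, was at 89.8, 118, 101, 88.6, 88.1, 100.1 and 102 TPM in controls and at 125, 138, 179.5, 145, 119, 129 and 142 TPM with TGFβ. Its groups were apart by little more than 1 TPM, with WT-CREB the highest control and S133A-CREB the lowest TGFβ library, and the change was 0.50 ± 0.07 (SE), adjusted p = 6.31e-04 in limma. Npm1, nucleophosmin, had the highest level of the 44 genes and went from 1466 ± 195 to 1792 ± 263 TPM, a change of 0.29 ± 0.07 (SE), adjusted p = 0.00994, which ran from 0.025 in S133A-KCREB to 0.60 in KCREB. Ncl, nucleolin, was at 289.5, 368, 233, 200.1, 218, 327 and 298 TPM in controls and at 315, 360.5, 326, 302, 259.5, 302 and 303 TPM with TGFβ. Ncl was lower with TGFβ in WT-CREB and S133A-KCREB and higher in the other lines, and its change of 0.19 did not pass the test (adjusted p = 0.0988 in limma).

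The 4 listed subunits of RNA polymerase I changed by unequal amounts. Polr1a (chr6:71886037-71956419), the largest subunit, was at 52, 61.3, 33.6, 45.6, 52.8, 55.1 and 56.3 TPM in controls and at 63.7, 64.1, 52, 63.7, 60.7, 71 and 56.4 TPM with TGFβ. KCREB was the lowest line in both groups, S133A/R314A-CREB hardly differed between treatments, and the groups overlapped. The change was 0.29 ± 0.07 (SE), adjusted p = 0.0118 in limma. Polr1b (chr2:128942891-128969980), which forms the catalytic centre with Polr1a, was at 25.8, 30.8, 22.3, 25.7, 28.1, 23.4 and 21.4 TPM in controls and at 36.6, 36.7, 42.1, 31.6, 34.5, 31.5 and 26.2 TPM with TGFβ. All lines were higher, KCREB by the most (0.89 against 0.25 to 0.49 elsewhere), for a change of 0.41 ± 0.08 (SE), adjusted p = 0.00273. Polr1c, shared with RNA polymerase III, was at 119, 140.2, 99.5, 128, 87, 103 and 76.5 TPM in controls and at 133.1, 148, 109.9, 129, 99.8, 115 and 86.8 TPM with TGFβ. The lines differed from each other by more than the treatments did, and each line was slightly higher with TGFβ, a change of 0.13 ± 0.04 (SE), adjusted p = 0.0152 in limma. Polr1d, also shared with RNA polymerase III, was at 177, 178, 171, 172, 161, 182 and 189 TPM in controls and at 192, 205, 183, 183, 192, 179 and 183 TPM with TGFβ. It varied least across libraries of the 4 subunits and its change of 0.098 did not pass the test (adjusted p = 0.102).

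Both listed nucleolar proteins that act with this polymerase rose. Mybbp1a, a nucleolar protein tied to ribosomal RNA transcription and processing, was at 174, 195, 111, 179.6, 158, 132 and 160.1 TPM in controls and at 252, 224, 231, 314.4, 217, 200.2 and 206 TPM with TGFβ. The groups did not overlap, KCREB being the lowest control and R314A-CREB the highest TGFβ library, and the change was 0.57 ± 0.09 (SE), adjusted p = 0.00122 in limma. Ddx21, an RNA helicase, went from 95.8 ± 11.7 to 127 ± 9.52 TPM, a change of 0.41 ± 0.07 (SE), adjusted p = 0.00152.

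Of the 13 genes of small subunit processing 10 rose, with a median of 0.35. Tsr1, a late maturation factor, was at 65.9, 72.2, 45.1, 61.3, 53.6, 54.1 and 57.7 TPM in controls and at 97.6, 84, 82.1, 96.7, 76.6, 80.5 and 85.7 TPM with TGFβ. Every TGFβ library was above every control, and the change was 0.56 ± 0.07 (SE), adjusted p = 3.55e-04 in limma. Wdr43 (0.50), Utp20 (0.37) and Nop14 (0.28) of the small subunit processome rose, as did the helicase Ddx10 (0.38) and Emg1 (0.21), a methyltransferase of ribosomal RNA. Among the later factors Bysl rose by 0.40 with no overlap of the groups, Ltv1 by 0.35 and Nob1, the nuclease that trims the end of the RNA, by 0.34. Utp14a, a processome factor, was at 40.4, 43.9, 37, 35.7, 32.6, 44 and 39.9 TPM in controls and at 42.6, 41.6, 45.5, 41.9, 35.6, 39 and 36.6 TPM with TGFβ. It was higher with TGFβ in 4 lines and lower in WT-CREB, S133A-KCREB and S133A/R314A-CREB, and its change of 0.05 did not pass the test (adjusted p = 0.554 in limma). Nat10, an RNA cytidine acetyltransferase, was higher in 7 of 7 lines, by 0.011 to 0.44, and its change of 0.15 did not pass either (adjusted p = 0.0752).

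Of the 15 genes of large subunit assembly 12 rose, with a median of 0.43. Gnl3, the nucleolar GTPase nucleostemin, was at 51.5, 75.5, 50.9, 49.5, 59.2, 72.5 and 68.3 TPM in controls and at 75.2, 87.6, 108, 81.3, 85, 105 and 86.9 TPM with TGFβ. KCREB with TGFβ was the highest library, the groups met at their edges, and the change was 0.56 ± 0.09 (SE), adjusted p = 0.00122 in limma. Gnl2, a related GTPase, was at 68.2, 79.1, 67.4, 74.5, 61.5, 63.7 and 63.3 TPM in controls and at 85.7, 89.1, 95.3, 103, 74.7, 84 and 80.6 TPM with TGFβ, a change of 0.35 ± 0.05 (SE), adjusted p = 5.54e-04. Its lines moved by like amounts, from 0.17 to 0.49, and the WT-CREB control was the only one above the lowest TGFβ library. Gnl3l, the paralogue of Gnl3, was at 94.3, 72.2, 84.3, 82.7, 67.4, 78.9 and 90.4 TPM in controls and at 99.99, 72.3, 86, 76.9, 63.9, 86.8 and 89.4 TPM with TGFβ. It was higher in 4 lines and lower in the others, and its change of 0.008 had a 95% interval of -0.084 to 0.10 (adjusted p = 0.89 in limma).

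The 3 proteins of the complex of Bop1, Pes1 and Wdr12, which acts in cutting the precursor of the large subunit RNAs, differed in level and call. Bop1 rose by 0.34 from a mean of 88.9 TPM, Wdr12 changed by 0.24 without passing the test (adjusted p = 0.0684 in limma), and Pes1 is among the low genes. The RNA methyltransferases Nop2 and Ftsj3 rose by 0.49 and 0.46. Nifk, which binds the proliferation protein Ki-67, rose by 0.50, Wdr74 by 0.47 with no overlap, Nop16 by 0.45, Ebna1bp2 by 0.40 and the helicase Ddx18 by 0.38.

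**Figure D2:**
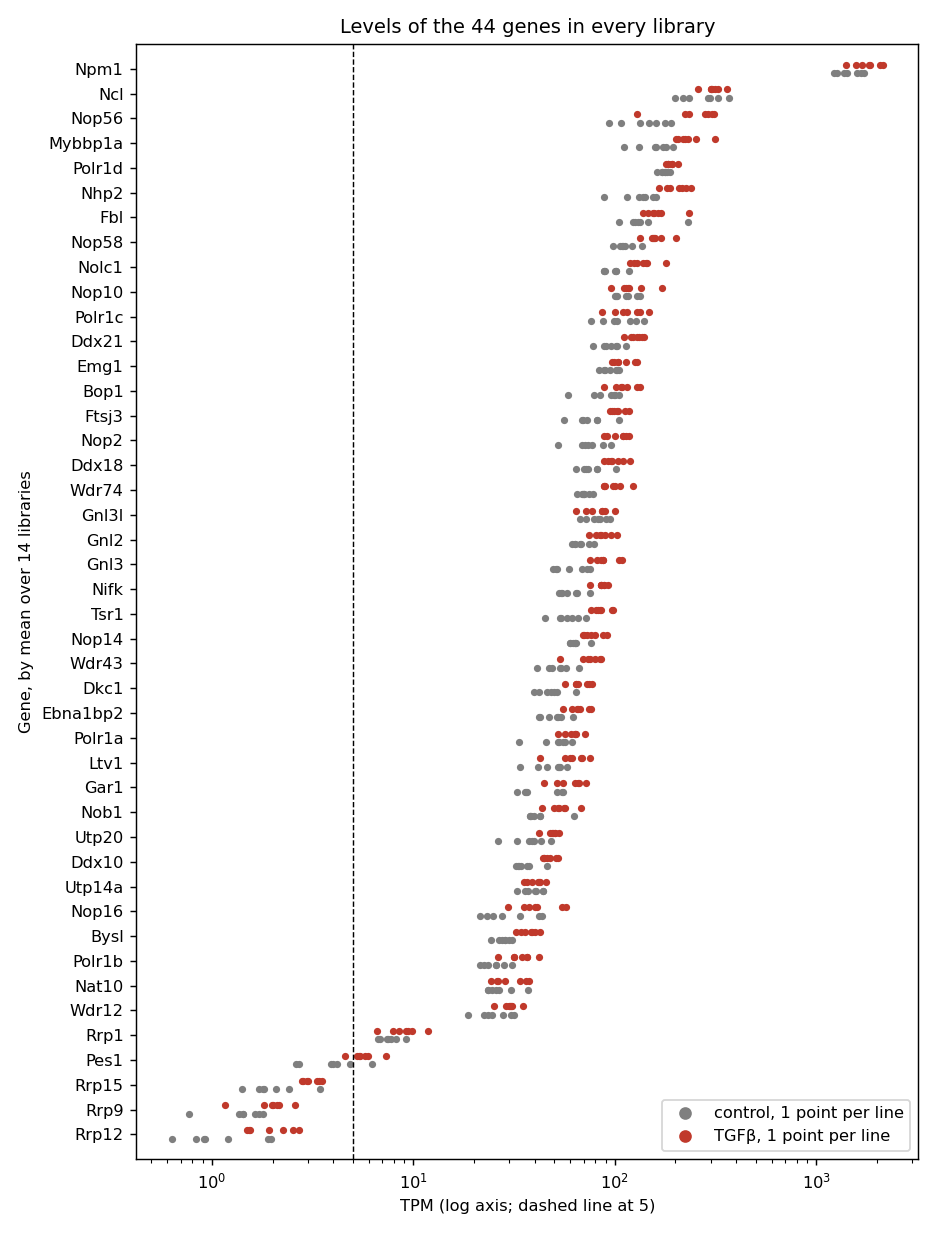
TPM on a log axis of each of the 44 genes in every library, 1 grey point per control line and 1 red point per TGFβ line, with genes ordered by their mean and a dashed line at 5 TPM. Rrp12, Rrp9, Rrp15 and Pes1 lie near or below the dashed line in both groups, Rrp1 just above it, and the other genes have means of at least 27.8 TPM.

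The 4 low genes held levels between 0.633 TPM (Rrp12 in a control) and 7.32 TPM (Pes1 with TGFβ) in the 14 libraries. Rrp12, a factor of small subunit export, had a mean of 1.59 TPM, above only 5.96% of tested genes. Rrp9, a protein of the snoRNP that starts small subunit processing, had a mean of 1.71 TPM and Rrp15, a large subunit factor, 2.61 TPM. Pes1, pescadillo, had 4.86 TPM, while its partners Bop1 and Wdr12 had 100.5 and 27.8 TPM. Rrp1, at 8.34 TPM, lay next above the 5 TPM line and Wdr12 after it.

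Of the 4 low genes 3 rose. Rrp12 changed by 0.47 ± 0.16 (SE), adjusted p = 0.0426, Pes1 by 0.43 ± 0.15 (SE), adjusted p = 0.0379 and Rrp15 by 0.43 ± 0.12 (SE), adjusted p = 0.0163 in limma. In WT-CREB each of these was lower with TGFβ, with differences of -0.22, -0.36 and -0.17. The calls of Rrp12 and Pes1 were lost without 1 line, for 6 and 5 of the 7 lines left out in turn, and the WT-CREB control was the highest control of each of the 3. Rrp9 (0.28, adjusted p = 0.0985) and Rrp1 (0.21, adjusted p = 0.17) did not pass the test. Per-base coverage of Rrp12 was 0.832 to 3.09 over the 14 libraries and that of Rrp9 1.87 to 5.54, so these changes rest on thin coverage.

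Other genes with symbols like those of the low Rrp genes were low as well, a grouping chosen after the levels were seen. Apart from Rps6k, a family holds the genes annotated as protein-coding whose symbol has a digit right after the letters given. The 8 genes whose symbol starts with Rrp (ribosomal RNA processing) had a median of 1.83 TPM and 8 of 8 were under 10 TPM, against 27.1% of all tested genes. Mitochondrial ribosomal protein genes were low too, with 46 of 49 Mrpl genes and 29 of 29 Mrps genes under 10 TPM. The 87 Rpl and Rps genes had a median of 13.4 TPM and a highest mean of 115.8 TPM. Of these, 33 (37.9%) were under 10 TPM, a smaller share than in the families above. Most of the 87 code for cytosolic ribosomal proteins, whose transcripts are known for abundance. The set also holds tissue-restricted paralogues, genes named as pseudogenes and Rps19bp1. Genes with a letter right after Rpl or Rps, such as Rpsa, are not in it. The 10 Rps6k genes, which code for kinases, had a median of 0.977 TPM. By contrast 0 of 8 Nop genes were under 10 TPM, with a median of 104 TPM, and the Utp, Ddx and Exosc genes had medians of 43.4, 65.8 and 47.9 TPM. Rpf1 (73.0 TPM), Rpf2 (40.1 TPM) and Rrs1 (67.1 TPM), also of large subunit assembly, were not low. The symbol did not cover every low gene: Pes1 lies outside these families, as do Rsl24d1 (2.04 TPM) and Rsl1d1 (9.18 TPM), and Exosc6 was at 1.07 TPM among the higher Exosc genes. As background, the full names of the Rrp, Mrpl, Mrps, Rpl, Rps and Rps6k genes and of Pes1, Rsl24d1 and Rsl1d1 hold the word ribosomal, and those of Rpf1, Rpf2 and Rrs1 the word ribosome. How these values came to be low was not tested, so a low value is that of the deposited table and need not be a low transcript level.

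**Figure D3:**
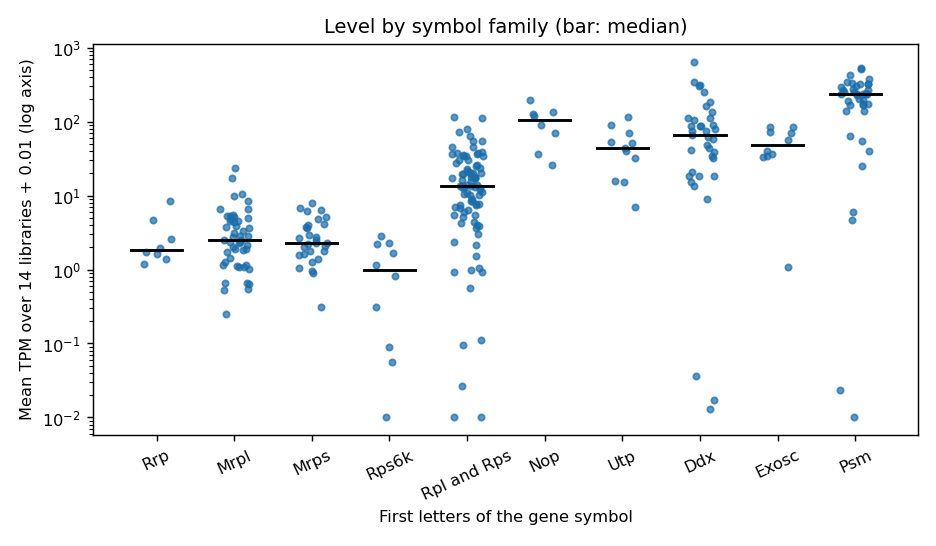
Mean TPM over 14 libraries plus 0.01, on a log axis, for protein-coding genes by the first letters of their symbol. Apart from Rps6k, a digit follows those letters, and Psm covers Psma to Psmd. Each point is a gene and the bar is the median. Rrp, Mrpl, Mrps and Rps6k genes have medians under 3 TPM, against 104 TPM for Nop genes and 233 TPM for Psm genes of the proteasome.

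The size of the rise differed between lines, with 1 library per line and treatment and so with no replicate check. The median change of the 44 genes was 0.37 in Vector, 0.20 in WT-CREB, 0.71 in KCREB, 0.51 in R314A-CREB, 0.32 in S133A-CREB, 0.35 in S133A-KCREB and 0.27 in S133A/R314A-CREB. Medians of all genes lay between -0.0077 and 0.05 in these lines. In KCREB 44 of 44 genes were higher, against 55.05% of all tested genes. In each of the other lines 37 to 43 of the 44 were higher, against 48.95% to 54.37% of all. KCREB had the largest change of the 7 lines for 30 of the 44, against 23.1% of all tested genes. WT-CREB had the smallest for 28, against 18.5% of all. The control levels differed as well: the KCREB control was the lowest of 7 for 22 genes (19.8% of all genes) and the WT-CREB control the highest for 29 (19.2% of all). A change and its control level share the control library, so these counts are not independent. Mybbp1a, for example, was at 111 TPM in the KCREB control and at 195 TPM in that of WT-CREB, and at 231 and 224 TPM with TGFβ.

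Myc, the known regulator of the pathway, was at 45.8, 102, 40.1, 48.5, 66.3, 60.2 and 53.5 TPM in controls and at 88.3, 132, 121, 153, 125, 129 and 108 TPM with TGFβ. It was higher in 7 of 7 lines, with the highest control in WT-CREB and the lowest in KCREB, and it changed by 1.07 ± 0.13 (SE), adjusted p = 4.42e-04 in limma. Its change was 1.64 in R314A-CREB and 1.57 in KCREB, the lines with the largest medians of the 44 genes, and 0.37 in WT-CREB, the line with the smallest. The order differed in the other lines: Myc changed by 0.93 in Vector, with the third largest median (0.37), and by 1.00 in S133A/R314A-CREB, with the second smallest (0.27). Both come from the same libraries, and the part of Myc in the change of the 44 genes was not tested.

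**Figure D4:**
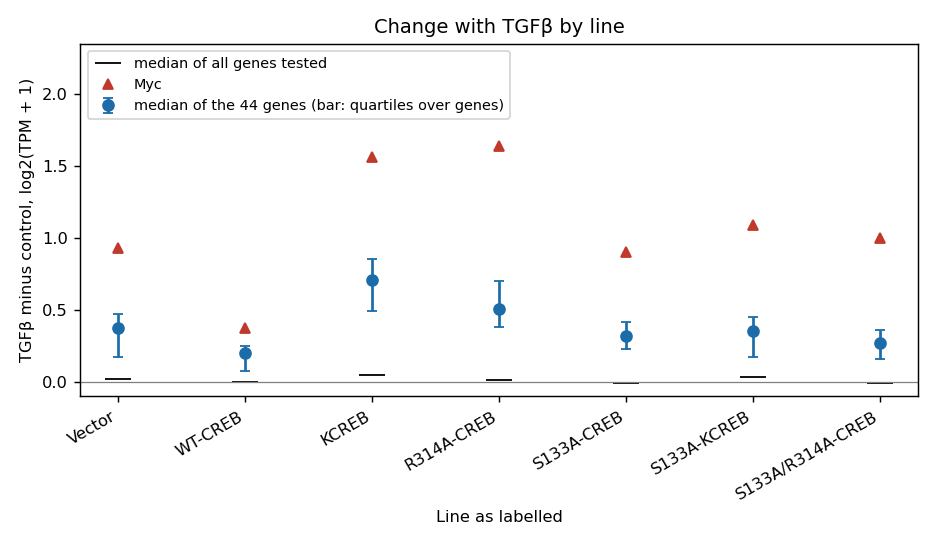
TGFβ minus control on the log2(TPM + 1) scale in each line: the median of the 44 genes with quartiles over genes as bars (blue), the median of all tested genes (black) and Myc (red triangles). The blue points run from 0.20 in WT-CREB to 0.71 in KCREB, and the black marks stay within 0.05 of 0.

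The S133A, K and R314A forms were compared on line means of the 6 CREB lines, with 3 lines having S133A and 3 not. In limma 0 of the 44 genes passed for S133A, K or R314A, or for the difference in TGFβ change between lines with and without S133A, and 0% of all tested genes passed in each. At an unadjusted p under 0.05 there was 1 gene of the 44 in each of these comparisons. Of all tested genes there were 753 (5.825%), 1310 (10.13%), 821 (6.35%) and 476 (3.68%). The Nop56 level differed by -0.43 ± 0.18 (SE, 95% interval -0.89 to 0.028, adjusted p = 0.809) with S133A and by -0.57 ± 0.22 (SE, 95% interval -1.13 to -0.0043, adjusted p = 0.785) with R314A. Polr1c differed by -0.41 ± 0.19 (SE, 95% interval -0.88 to 0.071, adjusted p = 0.809) with S133A, and Nat10, the gene with an unadjusted p under 0.05 there, by -0.40 ± 0.15 (SE, 95% interval -0.77 to -0.03, adjusted p = 0.809). Gar1 differed by -0.53 ± 0.19 (SE, 95% interval -1.01 to -0.054, adjusted p = 0.455) with K, where Fbl differed by 0.37 ± 0.22 (SE, 95% interval -0.20 to 0.95, adjusted p = 0.631). Control and TGFβ levels of Fbl were 232 and 234 TPM in S133A-KCREB against 123 and 156 TPM in S133A-CREB. In KCREB they were 131 and 169 TPM, against 134 and 165 TPM in WT-CREB. Ltv1 differed by 0.34 ± 0.23 (SE, 95% interval -0.25 to 0.94, adjusted p = 0.873) with R314A. Control and TGFβ levels of Ltv1 were 58 and 68.6 TPM in S133A/R314A-CREB against 33.8 and 42.4 TPM in S133A-CREB. In R314A-CREB they were 46.1 and 61.45 TPM, against 52.6 and 56.6 TPM in WT-CREB. Nop56 with R314A was lower in both pairs of lines, and by more in S133A/R314A-CREB than in R314A-CREB. The TGFβ change of Gar1 differed by -0.37 ± 0.14 (SE, 95% interval -0.74 to -0.008, adjusted p = 0.999) with S133A, and that of Rrp12 by -0.30 ± 0.26 (SE, 95% interval -0.97 to 0.36, adjusted p = 0.999). For this difference the median of the 44 genes was -0.17, against -0.017 for all genes, with no gene passing the test. By matched pairs the median TGFβ change was 0.35 in S133A-KCREB against 0.71 in KCREB and 0.27 in S133A/R314A-CREB against 0.51 in R314A-CREB. The remaining pair went the other way, with 0.32 in S133A-CREB against 0.20 in WT-CREB. The intervals of the single genes allow differences as large as the TGFβ changes above, and 4 of the 6 lines went against their label in Creb1.

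Most other genes of ribosome synthesis outside the 44 moved in the same direction, with 85 of 129 higher and 2 lower. Of all tested genes 24.1% were higher and 21.4% lower. The list medians ran from 0.094 for snoRNP assembly factors and 0.145 for the RNA exosome to 0.32 for the RNA polymerase I list, against 0.39 for the 44. Of 12 other RNA polymerase I subunits and factors 8 rose and 0 fell, among them Polr1e (0.52 ± 0.07 (SE), adjusted p = 4.99e-04) and Polr1g, listed under its older symbol Cd3eap (0.51). Of 47 other small subunit factors 32 rose and 1 fell: Fcf1 rose by 0.31 and Rcl1 by 0.50, and Tsr2, a chaperone of a ribosomal protein, fell (-0.14). Of 46 other large subunit factors 33 rose and 0 fell, with the smallest p for Ppan (0.83 ± 0.09 (SE), adjusted p = 2.69e-04 in limma) and then Sdad1 (0.43). Of 10 snoRNP assembly factors 4 rose, among them Snu13 (0.38) and the ATPase Ruvbl2 (0.45), and Znhit6 fell (-0.18). Of 14 genes of the RNA exosome, which trims ribosomal RNA, 8 rose and 0 fell, with Exosc1 at 0.48 and its nuclease Dis3 at 0.44.

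Of the sets beside the pathway listed here, all but the translation factors and the Rpl and Rps genes held genes that rose and genes that fell. Among the symbol families above, 62 of 78 tested Rpl and Rps genes rose and 0 fell, against 24.1% and 21.4% of all tested genes. Their median change was 0.39, at the low deposited levels described above. Of the 5 subunits shared by polymerases I, II and III, Polr2f rose (0.23) and Polr2l fell (-0.35). In the MYC network 3 of 9 rose, Myc, Max (0.24) and Mxi1 (0.39), and 3 fell, Mxd3 (-0.46), Mxd4 (-0.39) and Mlx (-0.16). Translation factors rose in 14 of 19 cases and fell in 0, with Eef1g at 0.48 and Eif5a at 0.42. Of 14 proliferation genes 7 rose, with Mcm7 at 0.27 and Mcm3 at 0.17, and Mki67 fell (-0.17). The median of the proliferation genes was 0.12, against 0.39 for the 44 genes, and no test of that difference was made.

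**Figure D5:**
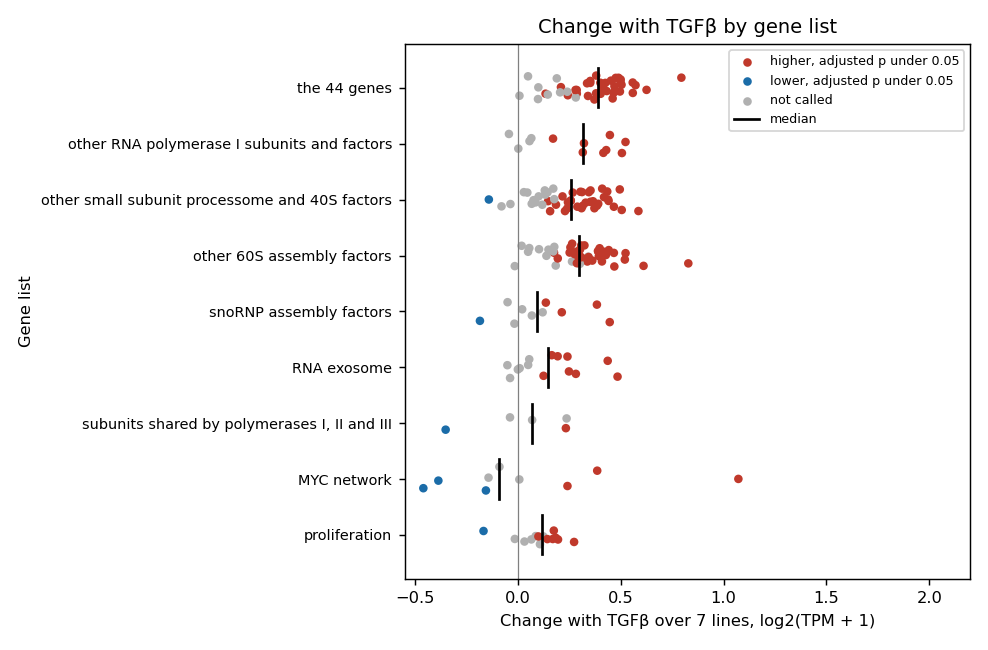
Change with TGFβ over 7 lines on the log2(TPM + 1) scale for the 44 genes and 8 other gene lists; each point is a gene, coloured where its adjusted p was under 0.05, and the bar is the median. The 44 genes have no blue point (lower) and a median of 0.39, and the MYC network has a median of -0.089 with Myc at 1.07.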

How the data were processed

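RNA-seq was available for 14 libraries of the αTN4-1 line. Per the submitters' processing notes, the tools include StringTie 2.0.4, edgeR and STAR 2.7.6a, on build GRCm39. The notes give no roles. Per the file headers, the deposited tables give each gene's TPM, FPKM and per-base coverage. TPM as deposited by the authors was the main unit, FPKM as deposited an alternative, and the deposited coverage served to judge depth. No read counts were used, so no counting intervals are given. Annotation release and strandedness are not stated there, and overlapping or antisense genes cannot be told apart.

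Values sharing an identifier were summed, and log2(TPM + 1) was fitted with limma 3.58.1 (R 4.3.3, intensity trend) for the 12927 genes averaging 1 TPM or more. The pseudocount of 1 understates changes of low genes. TGFβ was tested with the line as a block, because both libraries of a line share it: their deviations correlated with r of 0.614 to 0.845, against at most 0.275 between lines. S133A, K and R314A were fitted together on line means, and the S133A difference in response on within-line differences. P-values were adjusted by Benjamini-Hochberg over all tested genes, with a threshold of 0.05. The fits were tested on simulated data.

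The 44 genes and the other lists were chosen with earlier results of these data known. Values are given in full for the gene of smallest p and those of largest and smallest change in each role group, and for each RNA polymerase I subunit. Outside the list, up to 2 genes of smallest p and those that fell are named, and Max, Nat10 for S133A, Rpf1, Rpf2, Rrs1 and the other low or symbol-family genes were named after their values were seen. A list of other genes is not reported here. Alternatives were the pseudocount, filter, scaling, unit, trend, block and leaving out each line; leaving out the lines of low Creb1 was chosen after seeing the data. Promoter windows are from RefSeq (GRCm38.p6), and coordinates were not converted between builds.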

Additional observations from a re-analysis of the deposited data

Results flagged for a closer look

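In 13 of 132 groups of 7 values (44 genes in controls, with TGFβ and as differences), 1 line stood apart from the others by a gap test that chance alone passes in about 1 group of 20. The groups are not independent, since all genes share the same libraries and each difference is made from its control and TGFβ values. The share over all tested genes is not given, so these counts show no excess particular to the 44 genes. KCREB stood apart 6 times. Its TGFβ change on the log2(TPM + 1) scale was the highest for Polr1b (0.89, others 0.25 to 0.49), Utp20 (0.83, others 0.14 to 0.38) and Ltv1 (0.85, others 0.10 to 0.41). The same held for Nop16 (0.91, others 0.25 to 0.49) and Ebna1bp2 (0.80, others 0.25 to 0.47), and its control was the lowest for Rrp9 (0.769 TPM, others 1.36 to 1.80 TPM). The WT-CREB control was the highest for Nop14 (76.5 TPM, others 59.7 to 63.9 TPM) and Ddx10 (45.9 TPM, others 32.2 to 37.5 TPM). Fbl was highest in S133A-KCREB in both treatments, at 231.9 TPM in the control (others 104.5 to 147 TPM) and 234 TPM with TGFβ (others 138 to 169 TPM). In S133A/R314A-CREB, Nop56 with TGFβ was the lowest at 129 TPM (others 224 to 312 TPM) and the Nob1 control the highest at 62.5 TPM (others 37.8 to 42.5 TPM). Nifk with TGFβ was lowest in Vector, at 75.1 TPM (others 85.3 to 93.0 TPM). With 1 library per line and treatment, a line and its library cannot be told apart.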

How the results depend on the processing

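The number of the 44 genes higher with TGFβ was 21 without the replicate block, where 14 calls were lost and none reversed, and 31 to 37 in the other alternatives run, with 0 lower in each. It was 31 with no filter on low values, where Fbl, Rrp12, Pes1 and Rrp15 were lost and 10.2% of all genes were higher, 33 of 41 tested on FPKM (24.2% of all genes), and 33 to 37 with each line left out in turn (19.6% to 24.4% of all genes). Without WT-CREB Wdr12 and Rrp1 also passed, without S133A/R314A-CREB Wdr12 and without S133A-CREB Rrp9. Without the 4 lines of low Creb1, an alternative chosen after seeing the data, Fbl, Npm1, Polr1c, Nop14 and Ltv1 were lost and Rrp1 was gained. Of the lost calls the change of Fbl fell to 0.13, and those of Npm1 (0.33), Polr1c (0.16), Nop14 (0.31) and Ltv1 (0.47) were larger than with all lines. The median change stayed between 0.34 and 0.48, and was 0.37 after median-of-ratios scaling, which turned the split of all genes from 24.1% higher and 21.4% lower to 21.8% and 23.1%. Rescaling without mitochondrially encoded genes gave 22.01% and 22.6%, with 35 of the 44 higher. For S133A, K, R314A and the S133A difference in response, 0 genes passed in each alternative run. The tables hold no counts, so the counting error of the low genes is unknown.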
